A study of Arabidopsis thaliana with 6 samples.

Results

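Superoxide dismutases, ascorbate peroxidases and catalases were followed in seeds of an Arabidopsis thaliana mutant of AGL67, a gene for a MADS-box transcription factor, and in wild-type seeds. The family comprised 19 of 22746 probe sets, chosen because the authors' title for the probe set names one of these enzymes. These were 8 superoxide dismutase probe sets, 1 for the copper chaperone of superoxide dismutase, 7 for ascorbate peroxidases and 3 for catalases. Of the 19, 16 name 1 gene and 3 could not be paired with a gene and are given by their probe set. FSD1, APX1 and CAT1 were singled out because of their readings in this same comparison, so their differences are given as a description and without a p-value. Where a fit called any of them, that call carries no weight of its own. The other 16 were taken by title, in a family chosen with earlier results of these data known.

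RNA came from whole seeds on 6 Affymetrix arrays, 3 from agl67 mutant seeds and 3 from wild-type Columbia-0 seeds. Seeds of both groups had been kept in water for 3 days at 4 °C in darkness, which breaks dormancy, and then for 3 hours in light at 22 °C with 5 µM the hormone abscisic acid (ABA), which restrains germination. All arrays thus carry cold imbibition, light and ABA, and no array shows seeds without ABA. The labels call the arrays of a group biological replicates and the mutant a mads-box mutant in the Columbia-0 background, and they give no allele.

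Superoxide dismutases turn superoxide into hydrogen peroxide and oxygen, and are grouped by their metal into copper/zinc, iron and manganese enzymes. Ascorbate peroxidases then reduce the peroxide to water with ascorbate, which is regenerated through glutathione, whereas catalases break peroxide down without a reductant, mainly in peroxisomes. In seeds these enzymes accompany imbibition and the start of germination, when respiration and the breakdown of stored oil in peroxisomes yield peroxide. In Arabidopsis leaves the iron enzyme FSD1 and the copper/zinc enzymes CSD1 and CSD2 are known to move in opposite directions with copper supply, through the transcription factor SPL7 and a microRNA.

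Levels are the authors' log2 expression values per probe set, and a difference is the mean of the 3 mutant arrays minus the mean of the 3 wild-type arrays. A difference was called when its Benjamini-Hochberg adjusted p over all 22746 probe sets was under 0.05 in limma. The AGL67 probe set read 4.15, 4.30 and 3.66 in mutant seeds, against 8.79, 8.25 and 8.78 in wild-type seeds, a difference of -4.57 (SE 0.21, limma adjusted p = 0.000887; exact permutation test, two-sided, p = 0.1, the smallest value that 3 against 3 arrays allow). Probe sets titled as seed storage proteins, 7 in number, lay at or above percentile 89.2 of the readings on every array. The third wild-type array stood apart from the other arrays. Its median was 3.80, against 3.97 to 4.00 on the others, and it correlated with the other wild-type arrays at 0.980 and 0.983 across probe sets, while those correlated with each other at 0.994. Differences without it are therefore given beside the named results that it moves most. In whole seeds, fewer cells of a kind and less RNA per cell cannot be told apart.

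Of the 19 probe sets 3 were called, and all 3 were higher in the mutant: FSD1, APX1 and APX3. Over the whole array 2.70% of probe sets were called, 1.93% higher and 0.778% lower. Because FSD1 and APX1 were picked from this contrast, the count of 3 carries no weight of its own, and among the other 16 probe sets 1 was called. The mutant arrays lay wholly above the wild-type arrays for 9 of the 19 and wholly below for 2, while 8 overlapped; over the whole array the groups did not overlap for 24.0% of probe sets, 14.9% above and 9.16% below. The median difference of the 19 was 0.17, and over the whole array the median was 0.02. With the third wild-type array left out these medians were 0.16 and -0.01, and the same 3 members were called, where 6.73% of the array was called. The authors' deposited table has 2 of the 19, FSD1 and APX3, at a false discovery rate under 0.05, and 2.25% of the array. When any array but the third wild-type array was left out, 1 of the 19, FSD1, was called. Calls over the whole array numbered 615 as reported, 613 without the first wild-type array and 227 without the second. They numbered 117, 93 and 86 without mutant array 1, 2 or 3, respectively. The calls lost among the 19 are to be read against these numbers. No filter on low values was applied, so every member was fitted.

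**Figure D1:**
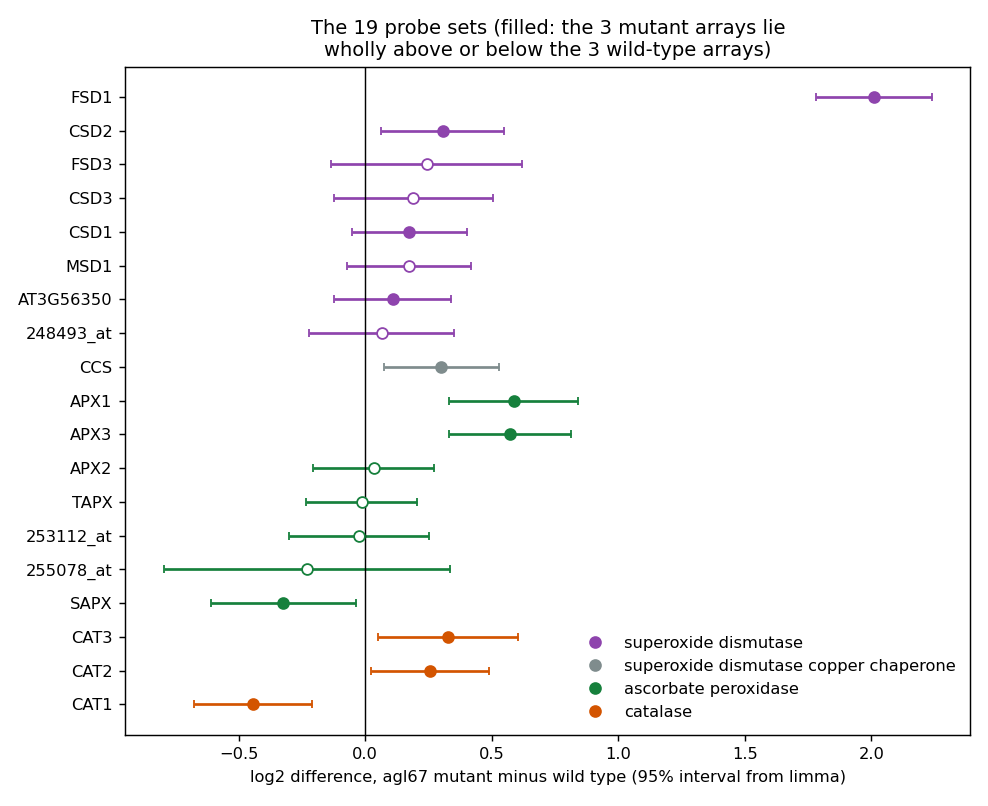
Log2 difference (x axis, agl67 mutant minus wild type) of each of the 19 probe sets (y axis), coloured by enzyme, with the 95% interval from limma. Filled points are probe sets whose 3 mutant arrays lie wholly above or wholly below the 3 wild-type arrays. FSD1 stands at 2.01, the other members lie between -0.44 and 0.59, and within the catalases CAT1 lies on the opposite side of 0 from CAT2 and CAT3.

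FSD1 (AT4G25100, probe set 254098_at) encodes an iron superoxide dismutase of chloroplasts and cytosol. It read 6.43, 6.58 and 6.50 in mutant seeds, against 4.56, 4.51 and 4.41 in wild-type seeds. The groups are far apart and the arrays within each group are close together, with an SD of 0.07 in both. The difference was 2.01 (SE 0.10, 95% interval 1.78 to 2.24), which is 4.03-fold on the linear scale. It was 1.97 when the third wild-type array was left out and between 1.97 and 2.04 whichever array was left out, and the authors' deposited table gives 2.03.

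The other iron enzymes did not share a difference of this size. FSD3 (AT5G23310), an iron superoxide dismutase of the plastid nucleoid, read 6.32, 6.40 and 6.21 in mutant seeds, against 6.26, 6.23 and 5.71 in wild-type seeds. The groups overlapped, and the lowest reading was that of the third wild-type array. Its difference of 0.24 (SE 0.16, adjusted p = 0.513) was 0.07 without that array. The probe set 248493_at, titled as a putative iron enzyme, differed by 0.06 (adjusted p = 0.839), with readings of 5.50 to 5.86 in mutant seeds and 5.53 to 5.69 in wild-type seeds. Within an array, FSD1 minus FSD3 was 0.11, 0.18 and 0.28 in mutant seeds, against -1.71, -1.71 and -1.30 in wild-type seeds. Only the change of such a gap between the groups, here 1.77, can be read, since levels of different probe sets are not comparable. A constant shift of an array cancels in the gap. With FSD1 picked from this contrast, the gap restates that choice in part and is a description.

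The copper/zinc enzymes read slightly higher in the mutant and none was called. CSD2 (AT2G28190), the chloroplast form, read 9.38, 9.19 and 9.23 in mutant seeds, against 8.94, 8.89 and 9.06 in wild-type seeds, so that every mutant array lay above every wild-type array. The difference was 0.31 (SE 0.10, 95% interval 0.06 to 0.55, adjusted p = 0.200). CSD1 (AT1G08830), the cytosolic form, read 9.12, 8.93 and 9.00 in mutant seeds, against 8.86, 8.85 and 8.82 in wild-type seeds. These groups did not overlap either, and the difference was 0.17 (SE 0.10, 95% interval -0.05 to 0.40, adjusted p = 0.432). CSD3 (AT5G18100), the peroxisomal form, differed by 0.19 (adjusted p = 0.538) with overlapping groups, and by 0.31 without the third wild-type array, which was the highest of its wild-type readings.

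CCS (AT1G12520, probe set 259511_at) encodes the chaperone that loads copper into the copper/zinc enzymes. It read 7.61, 7.61 and 7.68 in mutant seeds, against 7.43, 7.31 and 7.25 in wild-type seeds. All mutant readings were higher, and the difference was 0.30 (SE 0.10, 95% interval 0.07 to 0.53, adjusted p = 0.181), or 0.26 without the third wild-type array. FSD1, CSD1, CSD2 and CCS thus all had mutant readings above wild-type readings, with FSD1 differing by far more. The gap between FSD1 and CSD2 changed by 1.70 between the groups, and that between FSD1 and CSD1 by 1.84, each without overlap. Since FSD1 was picked from this contrast, these gaps restate that choice in part and are a description with no test.

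The manganese enzymes are titled as mitochondrial or as putative. MSD1 (AT3G10920), the mitochondrial enzyme, read 9.47, 9.44 and 9.53 in mutant seeds, against 9.22, 9.25 and 9.45 in wild-type seeds, a difference of 0.17 (adjusted p = 0.467) with slight overlap. AT3G56350 (MSD2), titled as a putative manganese enzyme, read 12.84, 12.82 and 12.90 in mutant seeds, against 12.80, 12.63 and 12.81 in wild-type seeds. The mutant arrays lay above by a gap of 0.02, and the difference was 0.11 (adjusted p = 0.646). All 8 superoxide dismutase probe sets, the picked FSD1 among them, had a difference above 0, with a median of 0.18. Over the whole array 12484 of 22746 probe sets were above 0, with a median of 0.02. When the arrays were centred on their medians or quantile normalised again, 248493_at turned below 0 and the other 7 superoxide dismutase probe sets stayed above. Over the whole array 9456 and 11204 probe sets, respectively, were then above 0.

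**Figure D2:**
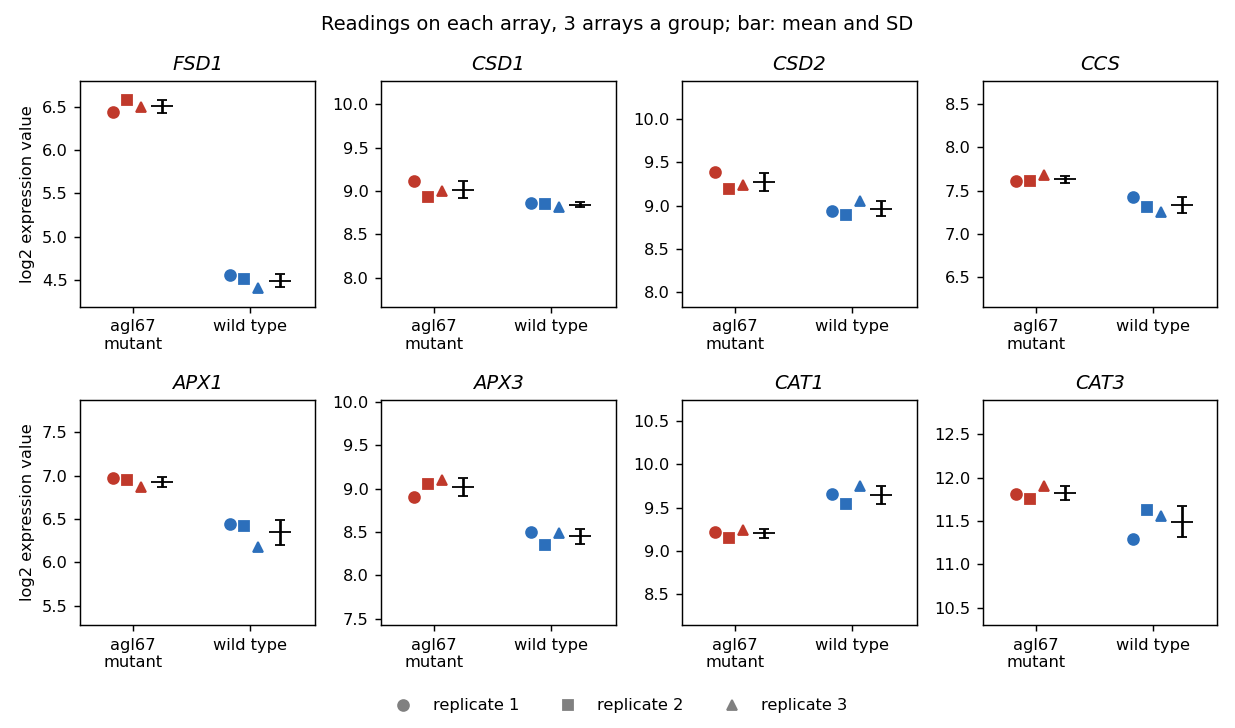
Log2 expression values (y axis) of FSD1, CSD1, CSD2, CCS, APX1, APX3, CAT1 and CAT3 on each of the 6 arrays, agl67 mutant at the left and wild type at the right of each panel. Symbols mark the replicates, the bar gives the group mean with its SD (n = 3), and every panel spans the same range of log2 units, so FSD1 parts the groups most widely while CAT1 alone has the mutant arrays below.

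Among ascorbate peroxidases, APX1 and APX3 read higher on every mutant array and SAPX, which was not called, read lower. APX1 (AT1G07890, probe set 261412_at), the cytosolic enzyme, read 6.97, 6.95 and 6.86 in mutant seeds, against 6.44, 6.41 and 6.18 in wild-type seeds. The groups did not overlap, and the third wild-type array gave the lowest reading. The difference was 0.59 (SE 0.11, 95% interval 0.33 to 0.84), 1.50-fold on the linear scale. Leaving out that array gave 0.50, and the authors' deposited table gives 0.47.

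APX3 (AT4G35000, probe set 253223_at) encodes an ascorbate peroxidase bound to the peroxisome membrane, and was not among the genes picked singly from this contrast. It was taken by title, in a family chosen with earlier results of these data known. It read 8.91, 9.05 and 9.10 in mutant seeds, against 8.50, 8.35 and 8.49 in wild-type seeds. No readings overlapped, and the third wild-type array lay with the other wild-type arrays. APX3 rose by 0.57 on the log2 scale (SE 0.10, 95% interval 0.33 to 0.81, adjusted p = 0.0355), 1.49-fold. Leaving out the third wild-type array gave 0.59, and the authors' deposited table gives 0.60 with a false discovery rate of 0.0280. The call was lost when any other array was left out (differences of 0.52 to 0.63) and when arrays were centred on their medians (0.50, adjusted p = 0.0649). Calls over the whole array numbered 86 to 613 in those fits without 1 array and 900 with median centring, against 615 as reported.

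SAPX (AT4G08390, probe set 255142_at), the form of the chloroplast stroma, read 6.53, 6.36 and 6.30 in mutant seeds, against 6.71, 6.89 and 6.56 in wild-type seeds. All mutant readings were lower, by 0.32 on average (difference -0.32, SE 0.12, 95% interval -0.61 to -0.04), and the adjusted p was 0.250. Leaving out the third wild-type array gave -0.40, which was still not called. Within an array, APX1 minus SAPX averaged 0.53 in mutant seeds and -0.37 in wild-type seeds, a change of 0.91 without overlap. Since APX1 was picked from this contrast, that gap restates the choice in part and is a description. APX3 minus SAPX changed by 0.89, and APX3 minus APX1 by -0.01 with overlap. With all mutant readings higher for APX1 and APX3 and lower for SAPX, the gaps to SAPX could not overlap. They restate those readings and are a description. TAPX (AT1G77490), the thylakoid-bound form, read 3.61, 3.70 and 3.66 in mutant seeds, against 3.61, 3.75 and 3.66 in wild-type seeds. That is a difference of -0.01, and its 95% interval of -0.23 to 0.21 leaves out differences in readings as large as those of APX1 and APX3. The TAPX readings lie below the median of every array, 3.80 to 4.00. Whether such low readings understate a change in the transcript was not tested.

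APX2 (AT3G09640), a cytosolic form known for its response to heat and strong light in leaves, differed by 0.03 (95% interval -0.20 to 0.27, adjusted p = 0.901). Its readings were 3.33, 3.31 and 3.28 in mutant seeds, against 3.16, 3.40 and 3.26 in wild-type seeds. These lie near the lower quartile of the arrays, 3.02 to 3.11, and centring the arrays turned the difference below 0. The probe set 253112_at, titled as a putative ascorbate peroxidase, read 2.89 to 3.02 in mutant seeds and 2.86 to 3.19 in wild-type seeds, a difference of -0.03, or -0.06 with the third wild-type array left out. The putative chloroplast form 255078_at read 4.30, 3.97 and 4.28 in mutant seeds, against 4.42, 4.91 and 3.91 in wild-type seeds. Its wild-type arrays were widely spread, and the difference of -0.23 (adjusted p = 0.690) was -0.48 without the third wild-type array.

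None of the 3 catalases was called in the fit as reported, and the CAT1 difference was below 0 where those of CAT2 and CAT3 were above. CAT1 (AT1G20630, probe set 259517_at), known from seeds and young seedlings and for its induction by ABA, read 9.22, 9.15 and 9.24 in mutant seeds, against 9.65, 9.54 and 9.75 in wild-type seeds. Every mutant reading was lower, and the difference was -0.44 (SE 0.10, 95% interval -0.68 to -0.21), 0.735-fold on the linear scale. Its difference was -0.39 when the third wild-type array was left out, and -0.46 in the authors' deposited table. CAT1 was called lower with an intensity trend, array weights or renewed quantile normalization, and under no other alternative. As CAT1 was picked from this contrast, these calls show only how the threshold moves with processing.

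CAT2 (AT4G35090), the main leaf catalase, which removes peroxide made in photorespiration, read 12.33, 12.31 and 12.31 in mutant seeds, against 11.96, 12.19 and 12.04 in wild-type seeds. CAT3 (AT1G20620), a catalase with a daily rhythm in leaves, read 11.81, 11.75 and 11.90 in mutant seeds, against 11.30, 11.63 and 11.56 in wild-type seeds. Both had all mutant arrays above all wild-type arrays, opposite to CAT1. The difference was 0.26 for CAT2 (SE 0.10, 95% interval 0.02 to 0.49, adjusted p = 0.265) and 0.33 for CAT3 (SE 0.12, 95% interval 0.05 to 0.61, adjusted p = 0.228), and neither was called. CAT1 and CAT3 lie next to each other on chromosome 1 in the RefSeq annotation of TAIR10.1. Whether probes of these similar genes also capture transcripts of the others was not tested.

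Within an array, CAT2 minus CAT1 was 3.11, 3.17 and 3.07 in mutant seeds, against 2.31, 2.65 and 2.29 in wild-type seeds, a change of 0.70. CAT3 minus CAT1 was 2.59, 2.61 and 2.67 in mutant seeds, against 1.65, 2.09 and 1.81 in wild-type seeds, a change of 0.77. Neither pair of groups overlapped, which was fixed by mutant readings all lower for CAT1 and all higher for CAT2 and CAT3. The gap between CAT3 and CAT2 changed by 0.07 with overlap. CAT1 was one of the genes picked from this contrast, so these gaps restate that choice in part and are a description with no test. Of the listed catalase partners, LSD1, a zinc-finger protein that binds catalases, differed by 0.13 (adjusted p = 0.624; 0.21 with the third wild-type array left out), and PEX5, the import receptor for peroxisomal proteins, by -0.05 (adjusted p = 0.840), both with overlapping groups.

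**Figure D3:**
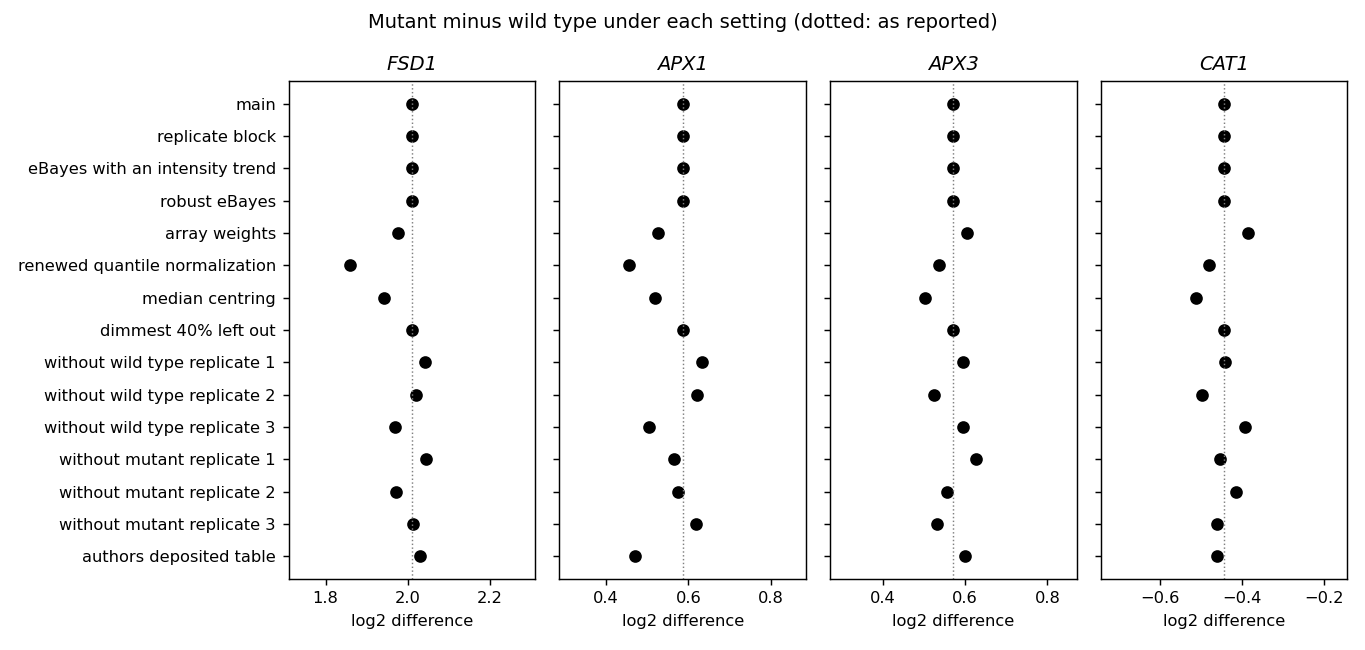
Log2 difference (x axis, agl67 mutant minus wild type; the scale differs in position but not in width between panels) of FSD1, APX1, APX3 and CAT1 under each way of processing (y axis), with the value as reported dotted. FSD1 lies between 1.86 and 2.04 in every fit, and no setting turns the direction of any of the 4.

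The genes that regenerate and make ascorbate and glutathione supply the ascorbate peroxidases. Of 19 listed genes of this cycle 10 were paired with a probe set, and 1 of these, GME, was called, while 8 had a difference above 0 and 2 below, with a median of 0.20. Over the whole array 2.70% were called, 12484 of 22746 were above 0, and the median was 0.02. GME (AT5G28840) encodes GDP-mannose epimerase, an early enzyme of ascorbate synthesis. It read 8.54, 8.54 and 8.53 in mutant seeds, against 7.74, 7.69 and 7.38 in wild-type seeds. GME rose by 0.93 on the log2 scale (SE 0.12, adjusted p = 0.0121), and by 0.82 without the third wild-type array. The call was lost when any 1 mutant array was left out, with differences of 0.93 to 0.94.

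The next genes were looked at after their values were seen. GSH2, glutathione synthetase, read 7.52, 7.61 and 7.50 in mutant seeds, against 7.19, 7.06 and 6.95 in wild-type seeds. The groups did not overlap, and the difference of 0.48 was not called (adjusted p = 0.0626). It was called when the third wild-type array was left out (0.42) and with array weights (0.44). VTC4, which acts late in ascorbate synthesis, read 5.06, 4.88 and 4.81 in mutant seeds, against 4.66, 3.99 and 3.69 in wild-type seeds, a difference of 0.80 with a wide spread (SE 0.23, adjusted p = 0.143). VTC4 was called with the first wild-type array left out (1.07, adjusted p = 0.0197) and with array weights (0.73, adjusted p = 0.0395). Without the third wild-type array its difference was 0.59, which was not called. GLDH, the mitochondrial enzyme of the last step of ascorbate synthesis, had a difference of -0.22 (adjusted p = 0.322) with all mutant arrays below. The glutathione reductases differed in sign, GR1 with -0.17 (adjusted p = 0.465) and the chloroplast form with 0.12 (adjusted p = 0.586).

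Many related enzymes are named only by title, and were grouped by title after values had been seen. Over the whole array 2.70% of probe sets were called, and 12484 of 22746 had a difference above 0, or 10605 without the third wild-type array. Monodehydroascorbate reductases, which restore ascorbate from its radical, had 5 probe sets, none called, with all differences above 0 and a median of 0.25 that was 0.06 without the third wild-type array. Dehydroascorbate reductases, which use glutathione to restore ascorbate, had 4, all above 0, with a median of 0.46 that was 0.25 without that array. Among them 261149_s_at, shared by more than 1 such gene, read 9.38, 9.23 and 9.33 in mutant seeds, against 8.87, 8.71 and 8.51 in wild-type seeds. It rose by 0.62 on the log2 scale (SE 0.12, adjusted p = 0.0451) and was called in 2 of the 6 fits that leave out 1 array. It was not called in the authors' deposited table (false discovery rate 0.0670).

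Glutathione peroxidases reduce lipid and other peroxides. Of 8 probe sets 1 was called, where 2.70% of the whole array was: 263426_at, titled as putative and paired with no gene. It read 8.25, 8.29 and 8.37 in mutant seeds, against 6.79, 6.83 and 6.78 in wild-type seeds. The groups are widely apart, as they are for FSD1, and the arrays within each group lie close together. The probe set rose by 1.50 on the log2 scale (SE 0.09, adjusted p = 0.00169), by 1.49 without the third wild-type array, and was called in all 6 fits that leave out 1 array. The median over the 8 was 0.16, against 0.02 over the whole array. GPX1, the only member of the listed family paired with a probe set, differed by 0.20 (adjusted p = 0.378).

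**Figure D4:**
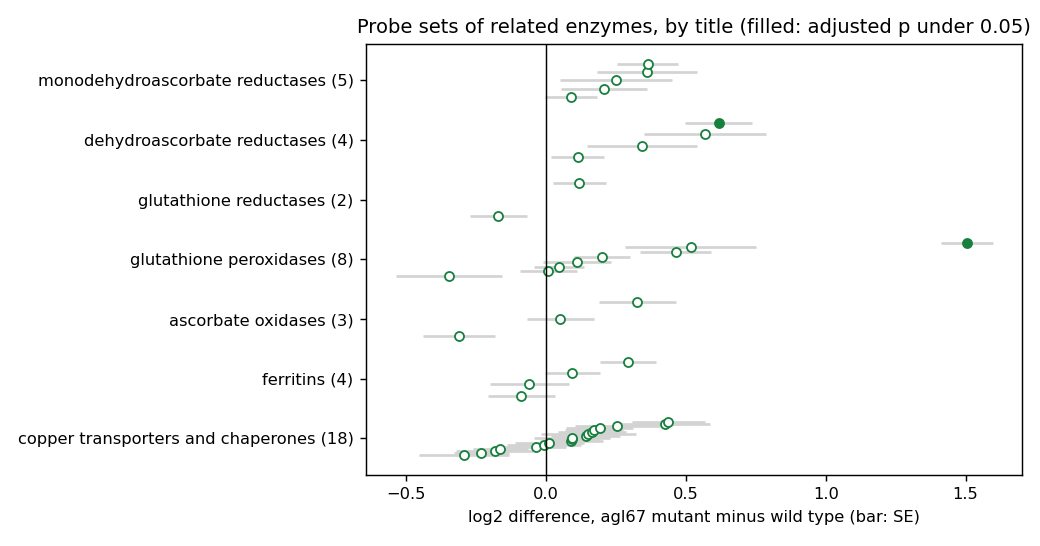
Log2 difference (x axis, agl67 mutant minus wild type) of each probe set of 7 groups of related proteins taken by title (y axis, number of probe sets in parentheses), with the SE from limma as a bar and calls at an adjusted p under 0.05 filled. A glutathione peroxidase probe set at 1.50 and a dehydroascorbate reductase probe set at 0.62 are the 2 calls.

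Copper and iron genes were followed because the superoxide dismutases differ in their metal. Of 28 listed genes of copper uptake, delivery and use 7 were paired and none was called, with a median difference of 0.11. Over the whole array 2.70% were called and the median was 0.02, so a list this short may well hold no call. RAN1, a copper-transporting ATPase, read 7.34, 7.19 and 7.25 in mutant seeds, against 7.56, 7.48 and 7.43 in wild-type seeds. Its readings were lower on every mutant array (difference -0.23, SE 0.10, adjusted p = 0.294). COPT1, a copper importer of the plasma membrane, differed by 0.26 (adjusted p = 0.457) with overlapping groups, and by 0.11 when the third wild-type array was left out.

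SPL7, the copper-responsive transcription factor, was looked at after its values were seen. It read 6.94, 6.83 and 6.84 in mutant seeds, against 6.82, 6.76 and 5.84 in wild-type seeds. The third wild-type array alone lies far below the rest, and the difference of 0.40 (adjusted p = 0.482) was 0.08 without it. The 18 probe sets titled as copper transporters or copper chaperones had no call and a median of 0.09, or 0.04 with that array left out. FER1, the ferritin gene among 4 listed that was paired, read 7.84, 7.72 and 7.72 in mutant seeds, against 7.36, 7.51 and 7.52 in wild-type seeds. All mutant readings were higher, and the difference was 0.29 (SE 0.10, adjusted p = 0.199), while the other ferritin probe sets differed by -0.09 to 0.09, or by -0.20 to 0.14 with the third wild-type array left out.

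Of 14 listed genes for sources of superoxide and hydrogen peroxide 9 were paired and none was called, where 2.70% of the whole array was. RBOHD, an NADPH oxidase of the plasma membrane that makes superoxide, read 10.20, 10.48 and 10.40 in mutant seeds, against 10.77, 10.96 and 10.96 in wild-type seeds. All mutant readings were lower (difference -0.54, SE 0.12, 95% interval -0.81 to -0.27, adjusted p = 0.0608). RBOHD was called lower with an intensity trend, array weights, renewed quantile normalization or median centring. The only other alternative that called it left out the third wild-type array, which gave -0.51 (adjusted p = 0.0408). RBOHE (AT1G19230), another NADPH oxidase gene, differed by 0.34 (adjusted p = 0.343), and by 0.19 with that array left out. Of 9 listed transcripts known to follow oxidative stress 3 were paired and none was called. ZAT12, a zinc-finger gene induced by peroxide, read 12.38, 12.09 and 12.04 in mutant seeds, against 12.03, 11.82 and 12.03 in wild-type seeds, a difference of 0.21 (adjusted p = 0.465). ZAT10, a related gene, differed by 0.28 (adjusted p = 0.364).

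Over all pathway lists without the 19 probe sets, 33 of 89 listed genes were paired and 1 was called, with a median difference of 0.14. Over the whole array 2.70% of probe sets were called and the median was 0.02. Listed genes not paired may have a probe set among the unnamed ones. The mutant arrays lay above the wild-type arrays for 13 of the 33 and below for 3, to be read against 14.9% and 9.16% over the whole array.

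Of the listed markers of tissue state that were paired, only the one for green seedling tissue was called. The only paired gene of 5 listed for green seedling tissue, RCA (Rubisco activase), read 6.25, 6.44 and 6.51 in mutant seeds, against 5.31, 5.27 and 4.76 in wild-type seeds. RCA rose by 1.29 on the log2 scale (SE 0.17, adjusted p = 0.0118), by 1.11 without the third wild-type array, and its call was lost when any 1 mutant array was left out. The only paired gene of 4 listed for endosperm, EXPA2, read 4.61, 4.31 and 4.92 in mutant seeds, against 3.62, 4.25 and 3.47 in wild-type seeds. That difference was 0.84 (SE 0.23, adjusted p = 0.127), with no overlap. Of 11 listed embryo genes 3 were paired and none was called: CRA1 with -0.26, EM1 with 0.13 (0.25 with the third wild-type array left out) and EM6 with 0.02. Over the whole array 10262 of 22746 probe sets had a difference below 0, and 0.778% were called lower. The 7 probe sets titled as seed storage proteins, CRA1 included, were all lower in the mutant on average, by a median difference of -0.45, and 2 of them were called. These were 253902_at, a 2S albumin, with -1.91 (SE 0.26, adjusted p = 0.0130), and 265095_at, a 12S protein, with -0.64 (SE 0.12, adjusted p = 0.0432). With 1 array left out, the 2S albumin probe set was called in 3 of 6 fits and the 12S probe set in 1 of 6, the fit lacking wild-type array 3. The part of tissue state in the differences of FSD1, APX1 and CAT1 was not tested.

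Among the probe sets naming 1 gene, the 5 with readings most like those of FSD1 over the 6 arrays had Pearson correlations of 0.995 to 0.998. The arrays fall into 2 genotypes, so such a value is reached by any probe set that parts them cleanly, and it is given as a description. They were AT5G14450, a GDSL-motif lipase gene with a difference of 2.19, and AT3G45310, a cysteine proteinase gene with 1.81. The others were AT5G59140, of the SKP1 family, with 0.36, AT2G41640, titled as an expressed protein, with 0.97, and AT4G01610, a cathepsin B-like protease gene, with 1.52. AT5G59140 was not called (adjusted p = 0.0924), and its readings spread little, 9.87 to 9.88 in mutant seeds and 9.50 to 9.55 in wild-type seeds.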

How the data were processed

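Values are the log2 expression values deposited by the authors, 1 per probe set and array; RMA and limma are named, without versions, in the submitters' processing notes. The authors' deposited comparison table, with log2 ratios, limma p-values and false discovery rates, served as an alternative; its 6 columns of per-array values were not used. The 64 control probe sets were left out. Genes were assigned to probe sets by the platform's gene table (13513), then through the authors' symbols and titles looked up in the RefSeq table of TAIR10.1 (1769); 6961 stayed unnamed. The files name no genome build, so no coordinates are given.

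Genotype was the only term in limma 3.58.1 (R 4.3.3; lmFit, eBayes), with Benjamini-Hochberg adjustment over 22746 probe sets and intervals from the moderated SE. The fit was tested on simulated data. P-values measure the spread between these samples, and the number of arrays limits the precision. Members, lists and tests were chosen with earlier results of these data known. Named were AGL67, every member, from each pathway list up to 4 called genes or else the 2 with the smallest p-values, and the 5 probe sets most like FSD1; other genes were chosen after their values were seen. Alternatives were a replicate block, each array left out, robust eBayes, eBayes with an intensity trend, array weights, renewed quantile normalization, median centring, the dimmest 40% left out, and the authors' table.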

Additional observations from a re-analysis of the deposited data

How the results depend on the processing

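The direction of FSD1, APX1, CAT1 and AGL67 held under all 14 alternatives run for each. The difference of FSD1 was 1.86 with renewed quantile normalization, and that of APX1 0.46 with it and 0.47 in the authors' deposited table. Of the 19 members, 3 were called as reported, 1 with the replicate block and between 1 and 3 with an array left out, 3 being reached only without the third wild-type array. With array weights or renewed quantile normalization 4 members were called, 3 of them higher, and CAT1 was called lower. With an intensity trend 3 were called, 2 of them higher: CAT1 was called lower and APX1 was not called. Median centring left 2 called. The pathway lists had 1 called gene as reported, 2 with an intensity trend, renewed quantile normalization or median centring, 4 with array weights and between 0 and 3 with an array left out. Probe sets called numbered 615 (438 higher), 1490 with array weights (956 higher), 1042 with renewed quantile normalization (593 higher), 900 with median centring (560 higher), 443 with the replicate block, and between 86 and 1530 with an array left out, 1530 being without the third wild-type array. The causes of these shifts were not tested. Median centring lowered the median difference of all probe sets to -0.04, against 0.02 as reported. With the replicate block APX3 had an adjusted p of 0.0872, the dehydroascorbate reductase probe set 261149_s_at 0.0794 and the storage protein probe set 265095_at 0.0604, and 1 member, FSD1, stayed called. The deviations of same-numbered arrays correlated at -0.16, 0.14 and 0.22, so the numbers were not taken as pairing the samples, and not every array correlated best with its own number. Probe sets near the lower quartile, APX2 and 253112_at among them, were left out with the dimmest 40%.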

Other observations

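Neighbouring genes in the RefSeq annotation of TAIR10.1 were looked at for 5 members, within 2 protein-coding genes on either side. Near FSD1, CHLM (AT4G25080), which encodes a methyltransferase of chlorophyll synthesis, read 6.37, 6.71 and 6.53 in mutant seeds, against 5.30, 5.41 and 4.58 in wild-type seeds. It rose by 1.44 on the log2 scale (SE 0.22, limma adjusted p = 0.0216) and by 1.18 without the third wild-type array, and was called in 3 of the 6 fits that leave out 1 array. AT4G25090, a respiratory burst oxidase gene that lies between CHLM and FSD1, read 3.17, 3.42 and 3.12 in mutant seeds, against 3.18, 3.29 and 2.97 in wild-type seeds, a difference of 0.09 (limma adjusted p = 0.785), or 0.00 with the third wild-type array left out. Near APX3, RAC3 (AT4G35020) rose by 0.71 on the log2 scale (limma adjusted p = 0.0492), and by 0.59 without that array. MYB32 differed by 0.50 there (limma adjusted p = 0.261). Near CAT2, AT4G35110 differed by 0.93 (limma adjusted p = 0.0632) and AT4G35070 by 0.43 (limma adjusted p = 0.224). ATMPK13 near APX1 differed by -0.07 (limma adjusted p = 0.765), and the paired neighbour of CAT1 is CAT3. These genes were chosen after their values were seen.

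The 3 ascorbate oxidase probe sets, for enzymes that use up ascorbate in the cell wall, had no call, and differed by 0.33, 0.05 and -0.31. AT5G21105, the lowest of them, read 3.85, 4.13 and 3.99 in mutant seeds, against 4.23, 4.17 and 4.50 in wild-type seeds, without overlap (limma adjusted p = 0.284).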
